A study of Homo sapiens with 15 samples.

Results

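Metallothioneins and the genes that answer zinc alongside them were followed in BEAS-2B cells through up to 30 weeks of exposure to plastic nanoparticles. The set held 9 genes chosen by name. These were the metallothioneins MT1A, MT1E, MT1F, MT1G, MT1M, MT1X and MT2A, the transcription factor MTF1 and the zinc transporter SLC30A1. All 9 were among the 28395 genes of the count table, and 7 of them were among the 16740 genes with enough reads to be tested. MT1A and MT1G were not. MT1A had 0 to 3 reads per sample and MT1G 0 or 1, and neither is described further.

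Metallothioneins are very small, cysteine-rich proteins that bind zinc and copper, and also cadmium, in clusters of thiolates. Their genes are switched on when free zinc rises: MTF1, a zinc-finger protein that senses zinc, binds short promoter elements named metal response elements (MREs). SLC30A1, also called ZnT1, moves zinc out of the cell and is a further textbook target of MTF1. Glucocorticoids and oxidants are known to raise metallothionein mRNA as well, and MT2A is usually the most abundant form in human epithelial lines.

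BEAS-2B is an immortalised human bronchial epithelial cell line. Cells received nanoplastics made by degrading polyethylene terephthalate water bottles (PET-NPLs) at 50 µg/mL, with the medium renewed throughout, and control cells were grown for the same time without particles. RNA was collected after 24 h (2 control and 2 PET-NPL samples), 15 weeks (2 and 2) and 30 weeks (3 and 4). All groups shared the same serum-containing medium, and no genetic change is given for any group. Libraries were made from ribosome-depleted total RNA and had 23143202 to 31459990 counted reads, and levels are given as counts scaled to a library size adjusted by the trimmed mean of M-values (CPM), 1 CPM standing for 23.3 to 33.9 reads. By their labels, samples of 24 h and 15 weeks form batch 1 and those of 30 weeks batch 2. Exposed and control cells were therefore always compared within a batch, while a step from 15 to 30 weeks also crossed the batches.

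The labelled cell type was checked against 8 genes of bronchial epithelium. At 30 weeks 4 of them exceeded 1 CPM in some sample, KRT8 and KRT18 at the highest levels, whereas EPCAM, CDH1, KRT5 and TP63 stayed below 1 CPM. The summed level of the 8 was 314 to 411 CPM in the 30 week controls and 880 to 1097 CPM in the 30 week PET-NPL samples. For skeletal muscle genes the sum was 143 to 204 CPM in the 30 week controls and 3.48 to 5.14 CPM in the exposed samples. MYOD1 and JSRP1 made up most of the sum in the controls, while ACTA1, CKM and TNNT3 were at or near 0. MYH3, a myosin, made up most of the sum in the exposed samples and averaged 3.16 CPM in the controls and 3.49 CPM in the exposed samples. A list of 7 fibroblast genes summed to 478 to 602 CPM against 374 to 436 CPM. THY1 made up most of this sum, with means of 388 and 317 CPM. The fibroblast genes did not move together: COL1A1 averaged 55.3 CPM in the controls and 7.36 CPM in the exposed samples, COL1A2 0.312 and 3.20 CPM. For leukocyte genes the sum was 1.46 to 1.97 CPM against 3.85 to 5.84 CPM, with PTPRC and CD3E at or near 0, and for 4 endothelial genes it was 0.559 to 0.866 CPM against 2.15 to 3.01 CPM, with PECAM1 near 0. At 15 weeks the epithelial sum was 854 to 898 CPM in controls and 826 to 1036 CPM in exposed samples. The muscle sum was 5.88 to 10.7 CPM and 6.14 to 6.72 CPM. At 24 h these sums were 1987 to 2297 CPM and 4.76 to 4.85 CPM in the controls. In the 24 h exposed samples they were 2232 to 2262 CPM and 5.49 to 6.25 CPM. For the epithelial, muscle, fibroblast and leukocyte sums the 30 week controls lay apart from every other group. For the fibroblast and endothelial sums the 30 week exposed samples did. The earlier times are in batch 1. In bulk RNA fewer cells of a type and less RNA per cell cannot be told apart. The part of these shifts in the metallothionein results was not tested.

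The 7 metallothionein genes lie in a cluster on chromosome 16, with other metallothionein loci between some of them. The other 2 genes are on chromosome 1. In GRCh38 coordinates MT2A is at chr16:56608584-56609497, MT1E at chr16:56625475-56627112, MT1M at chr16:56632659-56633981, MT1F at chr16:56657731-56660698 and MT1X at chr16:56682470-56684196, all on the plus strand. MTF1 is at chr1:37809574-37859592 and SLC30A1 at chr1:211571568-211579161, both on the minus strand. Because the metallothionein mRNAs are alike, windows of 100 bases were compared across annotated transcripts, and for MT1E, MT1M, MT1F and MT2A no window occurred in another gene. For MT1X, 22% of windows also belonged to an unnamed transcript of the same strand that overlaps it (ENSG00000259827), so part of its reads cannot be told apart from that locus.

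The 250 bases before the start of MT2A, MT1X and SLC30A1 are shown because these are the metal-responsive members with a RefSeq promoter entry (GRCh38.p14), and because MT2A and MT1X behaved differently at 30 weeks. Capitals mark each match to the MRE core, searched as TGCACNC or TGCGCNC on both strands.
MT2A, chr16:56608334-56608583, plus strand: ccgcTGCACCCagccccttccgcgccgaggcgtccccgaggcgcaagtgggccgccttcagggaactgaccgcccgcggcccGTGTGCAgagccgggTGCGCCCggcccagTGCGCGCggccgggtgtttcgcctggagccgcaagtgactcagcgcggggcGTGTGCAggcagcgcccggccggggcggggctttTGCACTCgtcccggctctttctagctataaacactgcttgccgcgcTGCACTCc
MT1X, chr16:56682220-56682469, plus strand: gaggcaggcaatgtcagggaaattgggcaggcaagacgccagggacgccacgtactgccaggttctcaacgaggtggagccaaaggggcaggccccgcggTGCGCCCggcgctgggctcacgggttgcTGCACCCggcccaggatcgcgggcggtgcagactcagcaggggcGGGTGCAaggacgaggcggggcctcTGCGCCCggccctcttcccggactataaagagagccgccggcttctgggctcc
SLC30A1, chr1:211579162-211579411, minus strand: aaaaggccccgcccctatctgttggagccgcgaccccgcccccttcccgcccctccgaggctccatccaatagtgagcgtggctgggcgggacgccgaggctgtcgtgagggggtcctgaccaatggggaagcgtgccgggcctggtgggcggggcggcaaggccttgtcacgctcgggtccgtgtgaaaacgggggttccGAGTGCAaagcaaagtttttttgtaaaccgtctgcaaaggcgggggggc

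The MT2A window held 7 matches, the MT1X window 4 and the SLC30A1 window 1. MTF1, whose own promoter entry was searched in the same way, had 0. Among 35116 promoters of this length, 24.83% held at least 1 match, 1.58% at least 3 and 0.37% at least 4. A single match, as upstream of SLC30A1, is therefore common, and a match is a description of letters and not a binding site. The MT1X matches nearest to the start began 53 and 78 bases upstream, and those of MT2A 8, 54 and 88 bases upstream.

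Per kilobase of canonical transcript, MT2A was the most abundant member in each of the 6 conditions. In the 24 h controls it stood at 202 CPM per kilobase, ahead of MT1X at 123 and MT1E at 78.6 CPM per kilobase. SLC30A1 followed at 6.80 and MTF1 at 2.55 CPM per kilobase, while MT1M at 1.49 and MT1F at 1.15 CPM per kilobase were weakly expressed. In the 30 week controls MT1E (197 CPM per kilobase) stood above MT1X (114 CPM per kilobase). These orders depend on the transcript taken for MT1E, whose canonical form has 746 bases. With its shortest coding transcript of 332 bases, MT1E would be at 442 CPM per kilobase in the 30 week controls, above MT2A at 235, and at 116 CPM per kilobase in the 15 week controls, above MT2A at 107.

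**Figure D1:**
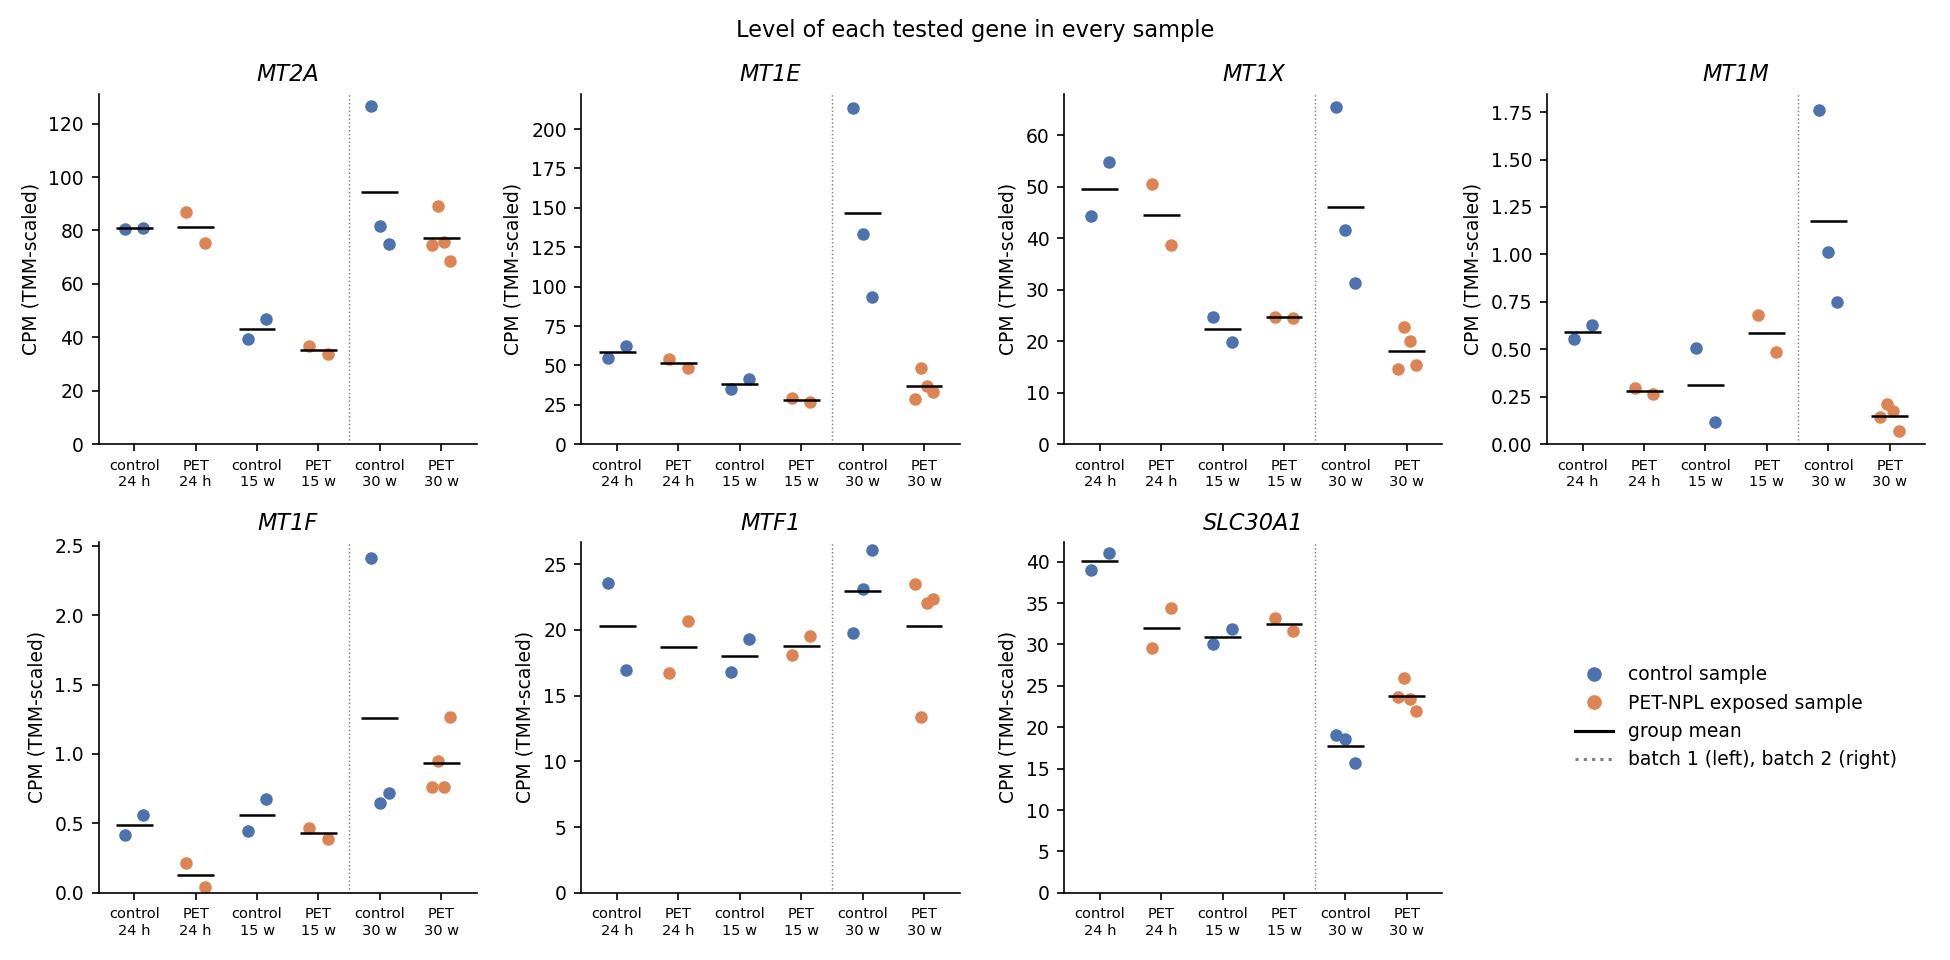
Level of the 7 tested genes in each of the 15 samples, in CPM scaled by the trimmed mean of M-values (TMM); each vertical axis starts at 0, bars are group means and the dotted line separates batch 1 from batch 2. The 30 week controls of MT1E (93.5 to 213 CPM) lie above all other samples, and the 30 week PET-NPL samples of SLC30A1 (21.9 to 25.9 CPM) lie above their controls (15.7 to 19.0 CPM).

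After 24 h of exposure none of the 7 tested members changed by edgeR's quasi-likelihood test at an adjusted p of 0.05, and neither did any other gene, the share of all genes called being 0%. At an unadjusted p under 0.05 there were 277 genes, 2 of them members. One was SLC30A1, at 39.0 and 41.1 CPM in the controls and 29.6 and 34.5 CPM in the exposed samples. Its log2 fold change was -0.32 (SE 0.144, edgeR adjusted p = 1). The other was MT1F, with 0.416 and 0.560 CPM against 0.213 and 0.0381 CPM, which is few reads. MT2A had 80.6 and 81.1 CPM in the controls and 87.1 and 75.4 CPM in the exposed cells. MT1X had 44.3 and 54.8 CPM against 50.4 and 38.6 CPM, and for both genes the difference of the means was smaller than the spread of the exposed pair. MT1E, at 54.9 and 62.4 CPM against 54.2 and 48.3 CPM, had adjoining pairs and a log2 fold change of -0.19 (SE 0.287).

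At 15 weeks the picture was similar: 0 of the 7 members and again 0% of all genes passed the same edgeR test, with 823 genes and 0 members at an unadjusted p under 0.05. DESeq2 and limma-voom also called 0 members, and DESeq2 called 18 genes in all. MT1E had 35.2 and 41.7 CPM in the controls and 29.1 and 26.5 CPM in the exposed samples, so the pairs did not overlap, with a log2 fold change of -0.47 (SE 0.289, edgeR adjusted p = 1). Fitted on the 15 week samples alone, MT1E was called (edgeR adjusted p = 0.0272), as were 304 of 15484 genes. MT2A was at 39.5 and 46.7 CPM against 36.8 and 33.8 CPM, a log2 fold change of -0.29 (SE 0.209, edgeR adjusted p = 1). MT1X (24.8 and 19.9 CPM against 24.7 and 24.5 CPM) and SLC30A1 (30.0 and 31.9 CPM against 33.3 and 31.7 CPM) had overlapping pairs.

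At 30 weeks MT1E, MT1X and MT1M, 3 of the 4 tested MT1 genes, were lower in exposed cells, while MT1F and MT2A were not called. SLC30A1 was higher in exposed cells, so that 4 of the 7 tested members passed the threshold. In the exposure comparisons, rose and fell compare exposed with control samples of the same time, not earlier with later samples. Over all genes tested the share was 23.7%, 2009 of them higher and 1952 lower. The 4 called members were also those whose exposed and control samples did not overlap, which held for 27.3% of all genes. The median log2 fold change of the 7 members was -0.40, against 0.01 for all genes tested.

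MT1E, one of the main metallothionein forms of these cells, had 213, 134 and 93.5 CPM in the 3 controls and 28.6, 48.3, 36.7 and 33.5 CPM in the 4 exposed samples. Every exposed sample lay below every control, and the controls spread widely, replicate 1 being the highest. The mean was 147 ± 61.0 CPM in controls and 36.8 ± 8.37 CPM in exposed samples (SD, n = 3 and 4), 3.99-fold lower. The log2 fold change was -1.996 (SE 0.220, edgeR adjusted p = 6.33e-06). Without control replicate 1 the log2 fold change was -1.62 (edgeR adjusted p = 3.2e-05).

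MT1X, at the far end of the cluster, had 65.5, 41.6 and 31.4 CPM in the controls and 14.6, 22.7, 19.99 and 15.4 CPM in the exposed samples. Again the groups were apart, the lowest control at 31.4 CPM and the highest exposed sample at 22.7 CPM. The log2 fold change was -1.34 (SE 0.215, edgeR adjusted p = 0.000265), a 2.54-fold lower mean, and -1.0 without control replicate 1 (edgeR adjusted p = 0.00248).

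MT1M was expressed near the limit of counting. The controls had 1.76, 1.01 and 0.752 CPM, which were 21 to 41 reads, and the exposed samples 0.145, 0.210, 0.174 and 0.0704 CPM, which were 2 to 6 reads. Its log2 fold change was -2.92 (SE 0.486, edgeR adjusted p = 0.00038). With so few reads in the exposed samples, the size of this change is less certain than its direction in these samples.

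MT2A had 127, 81.6 and 75.1 CPM in the controls and 74.6, 89.3, 75.8 and 68.5 CPM in the exposed samples. The groups overlapped, and only control replicate 1 stood above the exposed range. The log2 fold change was -0.29 (SE 0.158, edgeR adjusted p = 0.199), and -0.02 without that replicate (edgeR adjusted p = 0.956). MT1F, at 2.41, 0.650 and 0.716 CPM against 0.761, 0.946, 0.765 and 1.27 CPM, likewise had overlapping groups, and its log2 fold change of -0.40 (SE 0.437, edgeR adjusted p = 0.554) became 0.46 without control replicate 1.

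SLC30A1, the zinc exporter, had 19.0, 18.6 and 15.7 CPM in the controls and 23.6, 25.9, 23.4 and 21.9 CPM in the exposed samples. All 4 exposed samples were above all 3 controls. The mean was 17.8 ± 1.82 CPM in controls and 23.7 ± 1.64 CPM in exposed samples (SD, n = 3 and 4). The log2 fold change was 0.42 (SE 0.112, edgeR adjusted p = 0.0134). The call was lost without control replicate 3 (0.34, edgeR adjusted p = 0.0598) and with the 30 week samples fitted alone (0.41, edgeR adjusted p = 0.0724). MTF1, the transcription factor itself, had 19.8, 23.1 and 26.1 CPM against 23.5, 13.4, 22.1 and 22.3 CPM. Its groups overlapped, with exposed replicate 2 the lowest of all 15 samples, and the log2 fold change was -0.18 (SE 0.181, edgeR adjusted p = 0.523).

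**Figure D2:**
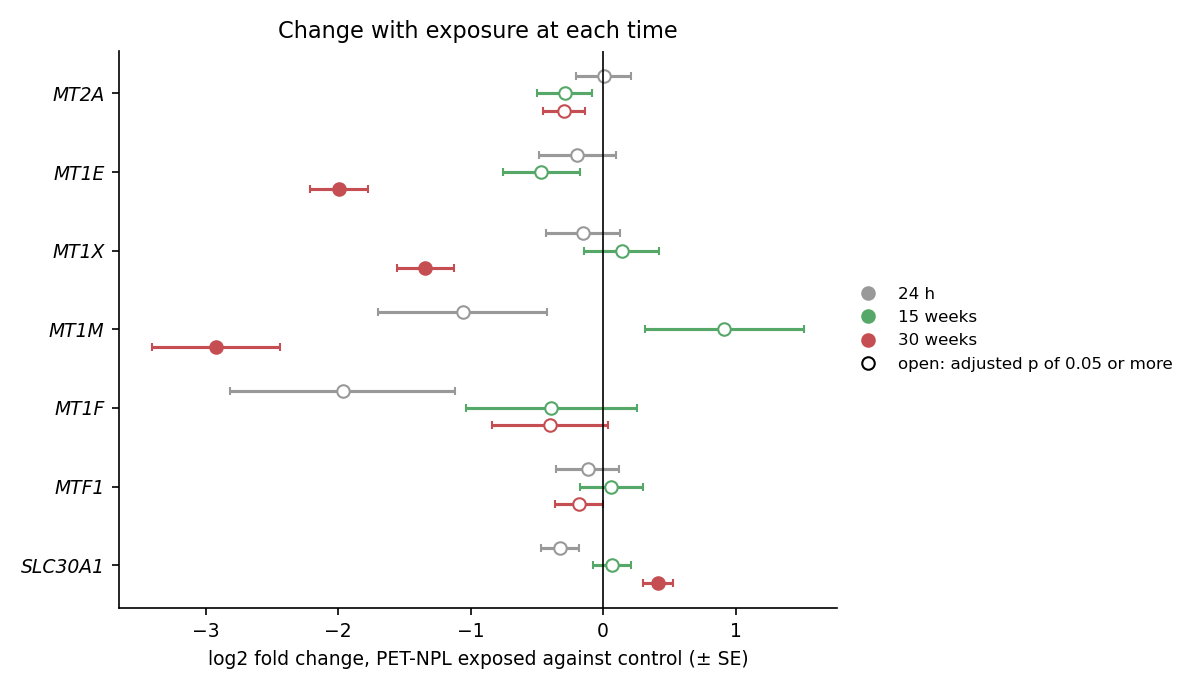
Log2 fold change of PET-NPL against control samples for each tested gene at 24 h, 15 weeks and 30 weeks, with its standard error; filled points passed an adjusted p of 0.05. The 4 filled points are all at 30 weeks: MT1E (-1.996), MT1X (-1.34), MT1M (-2.92) and SLC30A1 (0.42).

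Because all metallothionein mRNAs of a sample share its depth and its scaling, their ratios do not depend on either. In the 30 week controls 1.68, 1.64 and 1.25 reads of MT1E were counted per read of MT2A. The 4 exposed samples had 0.384, 0.541, 0.485 and 0.489 MT1E reads per MT2A read, all below the controls. In batch 1 the ratio ranged from 0.623 to 0.893 across the 8 samples, between the 30 week groups. The ratio was 3.21-fold lower in exposed cells at 30 weeks. MT1X reads per MT2A read were 0.518, 0.509 and 0.418 in the controls and 0.195 to 0.264 in the exposed samples, 2.06-fold lower. MT1X reads per MT1E read went the other way, from 0.307 to 0.335 in controls to 0.460 to 0.544 in exposed cells (1.56-fold higher). These 3 ratios were chosen after the values were seen and are given as a description, with no test. Of the summed reads of the 7 metallothionein members, MT2A accounted for 30.9 to 37.3% in the 30 week controls and 55.3 to 62.8% in the exposed samples, and MT1E for 46.4 to 52.1% and 24.1 to 29.9%. The summed level of the 7 was 201 to 410 CPM in the controls and 119 to 161 CPM in the exposed cells.

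**Figure D3:**
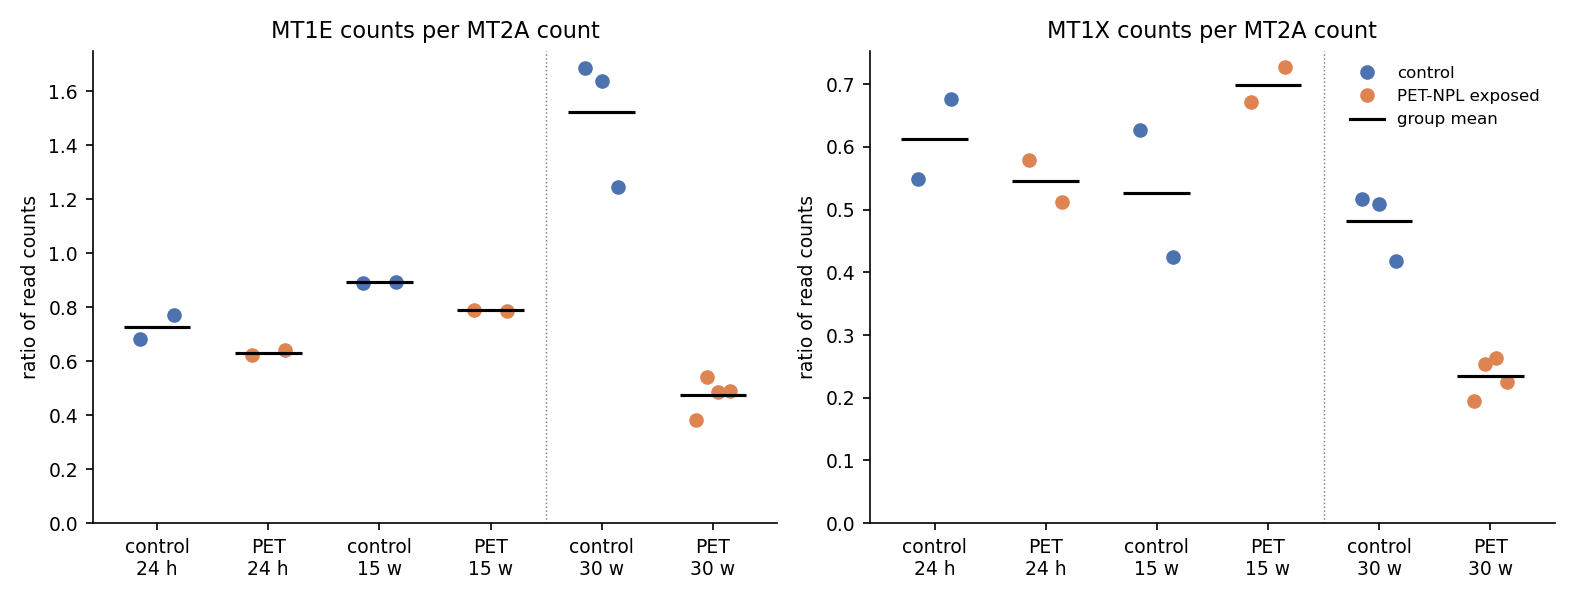
Reads of MT1E (left) and MT1X (right) per read of MT2A in each of the 15 samples, with group means as bars and both axes starting at 0; the dotted line separates the batches. At 30 weeks the exposed samples (0.384 to 0.541 for MT1E, 0.195 to 0.264 for MT1X) lie below the controls (1.25 to 1.68 and 0.418 to 0.518).

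Several measures of the 30 week libraries moved with exposure beside these genes. The share of reads on 6 small noncoding RNAs was 22.3 to 31.0% in the controls and 17.0 to 21.5% in the exposed samples. With those 6 left out, MT1E was at -1.99 and MT1X at -1.33 on the log2 scale, about as before. Short transcripts in general were lower in the exposed cells. Of 901 tested genes with a canonical transcript of up to 600 bases, 70.7% were lower and 22.6% were called lower, with a median log2 fold change of -0.37, whereas the 1242 genes over 8000 bases had a median of 0.16. MT2A (401 bases), MT1X (404 bases), MT1M (398 bases) and MT1F (425 bases) are in the shortest class, and 12.4% of that class had a log2 fold change below -1. MT1E is annotated with 746 bases, but its coding transcripts range from 332 to 746 bases. SLC30A1 (5893 bases) and MTF1 (7937 bases) are long. With the length trend of each sample removed, an alternative added after the data were seen, MT1E was at -1.72, MT1M at -2.57 and MT1X at -0.99, all 3 still called by edgeR (largest adjusted p = 0.000539). MT2A changed sign to 0.06 and SLC30A1 was no longer called (0.30, edgeR adjusted p = 0.0954). What set the length trend was not tested.

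To ask whether exposure acted differently at 30 than at 15 weeks, the log2 fold changes were subtracted and the result was tested in the same fit. The test called MT1E at -1.53 (SE 0.364, edgeR adjusted p = 0.0214), MT1X at -1.49 (SE 0.356, adjusted p = 0.0224) and MT1M at -3.84 (SE 0.781, adjusted p = 0.00748). Of all genes, 4.74% were called. MT2A had a difference of 0.00 (SE 0.264) and SLC30A1 one of 0.35 (SE 0.182, edgeR adjusted p = 0.396), neither of them called. This contrast leans on the pairs at 15 weeks: without exposed replicate 1 of that time no member was called, and without any other single 15 week sample MT1M was the one member left. A batch effect that acted unequally on both arms cannot be told apart from time here.

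The members were also compared across culture time. From 24 h to 15 weeks, within batch 1, the unexposed cells lost MT2A, from 80.8 to 43.1 CPM (log2 fold change -0.91, SE 0.210, edgeR adjusted p = 0.00458), and MT1X, from 49.6 to 22.3 CPM (-1.15, SE 0.284, adjusted p = 0.00696), 2 of 7 members beside 24.9% of all genes, a share close to the background. MT1X was no longer called without 24 h control replicate 2 or 15 week control replicate 2, and MT2A was no longer called without 15 week control replicate 1. Exposed cells showed a fall in 3 members over the same interval, beside 26% of all genes. MT2A went from 81.2 to 35.3 CPM (-1.20, edgeR adjusted p = 0.000529), MT1E from 51.3 to 27.8 CPM (-0.88, edgeR adjusted p = 0.0347) and MT1X from 44.5 to 24.6 CPM (-0.85, edgeR adjusted p = 0.0354). Without any 1 of the 4 exposed samples of these times MT2A was the one member called. SLC30A1 in the controls was at 40.1 CPM and then 30.9 CPM (-0.37, edgeR adjusted p = 0.0708).

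From 15 to 30 weeks, where time and batch cannot be told apart, unexposed cells gained MT1E from 38.4 to 147 CPM (log2 fold change 1.93, SE 0.280, edgeR adjusted p = 4.34e-05). MT2A rose from 43.1 to 94.4 CPM (1.13, SE 0.197), MT1X from 22.3 to 46.1 CPM (1.05, SE 0.265) and MT1M from 0.312 to 1.18 CPM (1.90, SE 0.545), while SLC30A1 fell from 30.9 to 17.8 CPM (-0.80, SE 0.131). These 5 of 7 members stand against 50.3% of all genes, and MT1X and MT1M were no longer called without 15 week control replicate 2. In the exposed cells MT2A rose by nearly the same amount, from 35.3 to 77.0 CPM (1.13, SE 0.190, edgeR adjusted p = 0.000223). MT1E, at 27.8 and then 36.8 CPM, was not called (0.40, SE 0.255, edgeR adjusted p = 0.21), nor was MT1X, at 24.6 and then 18.2 CPM (-0.44, SE 0.242, edgeR adjusted p = 0.152). SLC30A1 fell from 32.5 to 23.7 CPM (-0.45, SE 0.123, edgeR adjusted p = 0.007) and MT1M from 0.585 to 0.150 CPM (-1.93, SE 0.559, edgeR adjusted p = 0.0102). That made 3 of 7 members called among the exposed samples, beside 46% of all genes, a share not above the background. Without exposed replicate 1 of 15 weeks MT2A was the one member called. With the length trend removed, MT1X and MT1M were no longer called in the controls, nor SLC30A1 in the exposed cells. The exposed and control steps share no samples, but the 30 week exposure comparison and these steps use the same 30 week libraries.

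Ordered by level across the 6 conditions, MT1E was highest in the 30 week controls, followed by the 24 h controls and the 24 h exposed cells, each range clear of the next. Its 15 week control and 30 week exposed ranges overlapped. For MT2A the 4 conditions at 24 h and 30 weeks overlapped in sequence and both 15 week groups lay below them. SLC30A1 was highest in the 24 h controls and lowest in the 30 week controls. MTF1 varied little, with group means of 18.0 to 23.0 CPM.

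Of 10 further metallothionein loci, 9 were in the table and 2 had enough reads to be tested at 30 weeks. MT1L, a transcribed pseudogene between MT2A and MT1E, had 7.48, 4.73 and 3.26 CPM in the controls and 2.57, 2.45, 1.63 and 1.76 CPM in the exposed samples. Its log2 fold change was -1.28 (SE 0.254, edgeR adjusted p = 0.00164), although its sequence is fully shared with an overlapping unnamed transcript. MT1JP had a log2 fold change of -3.11 (edgeR adjusted p = 0.0398), but this rests on control replicate 1 with 37 reads, where the other controls had 4 and 1 reads and the exposed samples 0 to 3. Without that replicate MT1JP had too few reads to be tested. MT1B, MT1IP and MT4 had 0 reads in every sample, and MT1H, MT1HL1, MT1DP and MT3 at most 6.

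Genes near the cluster are plotted beside it. Of these neighbours HERPUD1, which serves in protein degradation at the membrane of the endoplasmic reticulum, fell from 52.8 to 36.5 CPM (log2 fold change -0.53, SE 0.0996, edgeR adjusted p = 0.00103). OGFOD1, the neighbour with the largest positive value in the plot, was at 0.36 (SE 0.131, edgeR adjusted p = 0.0574) and was not called.

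Other genes of metal handling changed in both directions at 30 weeks. At 24 h and 15 weeks edgeR called 0 genes of these lists. Among 6 tested zinc exporters of the SLC30 family other than SLC30A1, SLC30A4, which loads zinc into vesicles, rose from 5.71 to 8.02 CPM (0.49, SE 0.160, edgeR adjusted p = 0.0364). Of 12 tested zinc importers of the SLC39 family, SLC39A8 fell from 11.2 to 4.73 CPM (-1.24, SE 0.374, edgeR adjusted p = 0.0241), with overlapping groups. Without control replicate 1 neither was called (edgeR adjusted p = 0.116 and 0.0945). The same held with the 30 week samples fitted alone (edgeR adjusted p = 0.0937 and 0.077). With the length trend removed SLC30A4 was not called (edgeR adjusted p = 0.112). SLC30A4 and SLC39A8 were the only called genes of their lists, for each list a share below the 23.7% of all genes. The medians of both lists were 0.01, the same as over all genes.

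Copper handling had 6 called genes among 11, beside 23.7% of all genes. The importer SLC31A1 rose from 38.4 to 57.5 CPM (0.58, SE 0.146) and the copper pump ATP7B from 10.9 to 17.8 CPM (0.70, SE 0.177). SLC31A2, related to the importer, fell from 81.0 to 44.5 CPM (-0.87, SE 0.120), the cytosolic chaperone ATOX1 from 72.3 to 53.7 CPM (-0.43, SE 0.124), and the mitochondrial chaperones COX17 from 83.2 to 47.5 CPM (-0.81, SE 0.186, with overlapping groups) and SCO2 from 3.46 to 1.73 CPM (-0.99, SE 0.247). The median of the 11 was -0.09. ATOX1 and SCO2 were not called without control replicate 1 (edgeR adjusted p = 0.144 and 0.0785), and ATOX1 was at -0.10 with the length trend removed. With the 30 week samples fitted alone SLC31A1 and ATOX1 were not called (edgeR adjusted p = 0.0584 and 0.0763). Among 10 genes of iron handling, FBXL5, the iron-sensing subunit of a ubiquitin ligase, fell from 70.4 to 38.0 CPM (-0.89, SE 0.145) and the ferrireductase STEAP3 rose from 21.7 to 28.0 CPM (0.36, SE 0.122, not called without control replicate 1, edgeR adjusted p = 0.137). STEAP3 was also not called with the 30 week samples fitted alone or with the length trend removed (edgeR adjusted p = 0.157 and 0.0777). FBXL5 and STEAP3 were the only called genes of the list, a share not above the 23.7% of all genes. The median of the 10 was 0.06.

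In the list of metal and oxidative stress, 5 of 11 genes were called, beside the same 23.7% of all genes, and they did not move together. TXNRD1, a thioredoxin reductase, rose from 449 to 896 CPM (1.00, SE 0.164, edgeR adjusted p = 0.000334). The cystine transporter SLC7A11 rose from 12.7 to 18.9 CPM (0.57, SE 0.120), SRXN1, which repairs peroxiredoxins, from 77.7 to 111 CPM (0.52, SE 0.108), and GCLC, of glutathione synthesis, from 16.1 to 22.8 CPM (0.50, SE 0.134; not called without control replicate 1, edgeR adjusted p = 0.0629). HMOX1, the inducible haem oxygenase, fell from 49.1 to 30.7 CPM (-0.68, SE 0.128, edgeR adjusted p = 0.00116). The list's median was 0.01. Genes that answer glucocorticoids, another known input of metallothionein promoters, had 4 of 7 called beside that share. FKBP5 rose from 24.1 to 44.5 CPM (0.88, SE 0.151), KLF9 from 9.01 to 16.8 CPM (0.89, SE 0.190) and SGK1 from 22.4 to 40.2 CPM (0.85, SE 0.212), whereas TSC22D3 fell from 15.2 to 10.9 CPM (-0.48, SE 0.140; not called without control replicate 1, edgeR adjusted p = 0.104). The median of the 7 was 0.19.

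As a description, members were also compared with each other and with all genes of at least 1 CPM by Pearson's r of log2 CPM over the 15 samples, which share libraries and conditions. MT1E and MT1X had r = 0.99 within the 7 samples of batch 2 and 0.83 within the 8 of batch 1. For MT1E and MT2A it was 0.74 and 0.96. MTF1 had r between -0.10 and 0.17 with the 5 metallothioneins over all samples. The genes most like MT2A were TRIP6 (r = 0.97), MGLL (0.97) and EIF6 (0.97), those most like MT1X were SPCS3 (0.95), FAM241A (0.95) and SNX18 (0.95), and those most like MT1E were LINC03033 (0.96), DEF6 (0.95) and ARMCX2 (0.94). SLC30A1 was most like CROT (0.97), TYW5 (0.96) and CEBPG (0.96). Within batch 1 these 3 had r = 0.82, 0.92 and 0.66 with SLC30A1, and within batch 2 0.93, 0.83 and 0.92. For the genes most like MT2A, MT1X and MT1E, r within a batch was 0.86 to 0.99.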

How the data were processed

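RNA of 15 BEAS-2B samples was sequenced from stranded, ribosome-depleted total RNA libraries. The authors used Rfastp for trimming and GRCh38 for mapping, and deposited raw read counts per gene made with featureCounts (Rsubread); the strand and multi-mapping settings are not given in the sources used here. Of 28395 Entrez gene numbers, 27745 carried a symbol. Whether replicates were separate cultures is not stated, so p-values measure the spread between these samples, which may be technical.

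Low genes were removed by filterByExpr over 6 conditions, and counts were scaled by TMM and fitted over all 15 samples with edgeR 4.0.16 (quasi-likelihood test, 1 mean per condition; R 4.3.3), with Benjamini-Hochberg adjustment over 16740 genes and a threshold of 0.05. The study's methods used limma-voom with surrogate variables. Alternatives were limma 3.58.1, sva 3.50.0 (2 variables), DESeq2 1.42.0, other filters, scalings and thresholds, thinned counts, a replicate block, left-out samples, 2 samples per arm and, added after the data were seen, a transcript-length offset. Log2 CPM used a prior count of 2. Errors and intervals cover these libraries only.

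The members and lists were chosen with earlier results of these data known, and some items of the lists are not reported here. Named are all 9 members and, of each list, the genes called in an exposure comparison (at most 6; otherwise the 3 with the largest changes each way at 1 CPM or more), and the 3 most correlated genes of 4 members. Promoters are from RefSeq, gene models from GENCODE. Of the tested genes, 94.9% had a transcript length. No 2 samples agreed within counting noise. On simulated data with 200 genes changed 4-fold, edgeR recovered 97.5% for the 30 week comparison and 97% for the 15 week comparison, among 16520 genes. It also called 14 and 16 unchanged genes in these comparisons. Genes with the fewest reads were not among those changed, and changes under 4-fold were not simulated.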

Additional observations from a re-analysis of the deposited data

Results flagged for a closer look

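The change with exposure differed between 30 and 15 weeks for 3 genes by the direct test of that difference (edgeR's quasi-likelihood test, adjusted p under 0.05). Over all genes the same test called 4.74%. MT1E had a difference of -1.53, from log2 fold changes of -1.996 at 30 weeks and -0.47 at 15 weeks. For MT1X the difference was -1.49, from -1.34 and 0.14. For MT1M it was -3.84, from -2.92 and 0.92, on few reads. All 4 exposed samples at 30 weeks were below all 3 controls for each of the 3 genes. Groups that did not overlap at 30 weeks were found for 27.3% of all genes, and the same libraries entered the test of the difference. The time points are in separate batches.

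Among the 4 exposed samples at 30 weeks, 1 stood apart for MTF1. Replicate 2 had 13.4 CPM (382 reads) where the others had 22.1 to 23.5 CPM, a gap of 0.859 of the whole range, above Dixon's 95% critical value for 4 samples. Chance marks about 1 in 20 such groups, and 7 genes were examined. Leaving replicate 2 out kept the log2 fold changes of MT1E (-2.16) and MT1X (-1.47) called.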

How the results depend on the processing

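At 30 weeks MT1E and MT1X were called under all 26 alternatives fitted and MT1M under all 25 that tested it, with log2 fold changes of -2.23 to -1.62, -1.55 to -0.99 and -3.16 to -2.51. SLC30A1 was called under 23 of 26 (0.30 to 0.47). The count of called members at 30 weeks was 3 or 4 under each of these, and 4 with a replicate block (MT1E at -1.89). Deviations of same-numbered samples correlated at -0.12, 0.30 and 0.10 at 30 weeks, -0.06 at 24 h and 0.03 at 15 weeks. Differently numbered samples were not compared, so these values cannot decide whether the numbers pair the samples. With 2 controls and 2 exposed samples the median over 18 choices was 3 and the lowest 0. MT1E was called in 16 of the 18, MT1M in 15, MT1X in 13, MT2A in 1 and SLC30A1 in 0. Both choices with 0 held controls 2 and 3 and exposed replicate 2, and they called 365 and 354 genes in all. Over the 18 choices the number of genes called in all ranged from 354 to 4873.

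Counts of called members moved elsewhere. At 15 weeks 1 was called with each time point fitted alone, with 304 of 15484 genes. For the difference between 30 and 15 weeks 1 remained at an adjusted p of 0.01 (403 of 16740 genes, from 794), and leaving out 1 sample gave 0 to 3. For controls at 15 weeks against 24 h the count was 4 with surrogate variables (6473 genes, from 4174), 1 at a fold of at least 2 (2168 genes), and 1 to 3 leaving out 1 sample. For exposed cells over that interval it was 1 at an adjusted p of 0.01 (2548 genes, from 4349), 1 at a fold of at least 2 (2242 genes), and 1 to 3 leaving out 1 sample. From 15 to 30 weeks the leave-out ranges were 3 to 6 in controls and 1 to 4 in exposed cells. A left-out sample at 24 h or 15 weeks leaves its arm with 1 sample, assumed to vary like the other groups.

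Changes that were not called turned sign in places. MT2A at 24 h was -0.01 with each time point fitted alone, 0.00 without the filter and -0.11 to 0.11 leaving out 1 sample. At 24 h MTF1 ranged from -0.34 to 0.14 and MT1X from -0.37 to 0.03. At 15 weeks MTF1 was -0.05 with surrogate variables, -0.01 with the length trend removed and -0.03 to 0.17 leaving out 1 sample, and MT1X -0.01 to 0.31. At 30 weeks MT1F ranged from -0.72 to 0.46, and MT2A was 0.06 with the length trend removed. The causes were not tested. Depth limits MT1M and MT1F, whose levels are mostly below 30 reads per sample.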
